A study of Mus musculus with 30 samples.

Results

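The genes described here are the 3 core pluripotency factors Pou5f1, Sox2 and Nanog, the embryonic stem cell (ESC) factors Sall4, Utf1 and Zscan10, the RNA-binding paralogs Lin28a and Lin28b, and the neighbouring genes Dppa2 and Dppa4. They were taken by symbol from the Ensembl identifiers of the count tables, 10 genes of 52630 in a time-course table and of 55487 in a passage table. All 10 were in both tables and all passed the filter on low counts, which left 16049 and 16054 genes for testing. RNA was sequenced from E14tg2a, an established mouse ESC line, so every group is the same line. In the time course, cells in Serum/LIF (labelled 0 h) were compared with cells moved to EMM for 3, 9 or 24 h. EMM is the Serum/LIF medium with galactose in place of glucose and pyruvate. The treatment note also speaks of Serum/LIF for 24 h, so the time at which the control cells were taken is given in 2 ways. The passage experiment held the cells for 10 passages (P10) or 20 passages (P20) in one of 3 media, Serum/LIF, EMM and 2i/LIF. 2i/LIF adds inhibitors of MEK and GSK3 to LIF. The study's proteome methods list it with N2B27, while Serum/LIF and EMM are DMEM with fetal bovine serum. Comparisons with 2i/LIF are thus not of the inhibitors alone, and these parts of the media cannot be told apart. Each group had 3 libraries, 12 in the time course and 18 in the passage experiment. The study's methods describe the 3 samples of a condition as biological replicates of independent experiments, which the labels do not state.

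OCT4 (encoded by Pou5f1), SOX2 and NANOG are transcription factors that bind many ESC enhancers together and maintain the undifferentiated state. SALL4 is a zinc finger factor that acts with OCT4 and NANOG, UTF1 is a chromatin-bound protein of undifferentiated cells, and ZSCAN10 is a zinc finger factor that binds with the core factors. LIN28A and LIN28B bind the precursors of let-7 microRNAs and block their maturation, and let-7 in turn targets the Lin28 mRNAs. DPPA2 and DPPA4 form a heterodimer that binds chromatin, keeps developmental promoters free of DNA methylation and acts upstream of genes of the 2-cell embryo. In mouse ESCs, 2i/LIF is known to lower genes that serum cultures share with later epiblast, and Nanog is known for levels that vary between single cells in serum.

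Library totals ran from 24074132 to 35301962 counts in the time course and from 6944918 to 27912959 in the passage experiment, and the spread between replicates was wider in the second (common dispersion 0.00364 and 0.0153). All 8 ESC markers listed (among them Zfp42, Esrrb and Fgf4) were above 3 counts in Serum/LIF and EMM of both experiments, and 7 of 8 were in 2i/LIF. Markers of other cells differed between the media after passaging. The summed level of 6 fibroblast markers was 2202 to 2651 normalized counts in P10 Serum/LIF and 3561 to 7085 in P20 Serum/LIF, against 286 to 364 and 152 to 201 in EMM and 45.0 to 98.7 in 2i/LIF. Col1a1, a collagen gene of fibroblasts, led that sum in Serum/LIF. Its log2 difference between EMM and Serum/LIF was -7.74 at P10 and -6.88 at P20 (edgeR adjusted p = 6.93e-12 and 9.69e-12). In P10 EMM only 2 of the 6 were above 3 counts. The fibroblast sum in the time course was 1800 to 1887 at 0 h and 1244 to 1477 at 24 h. Of the 6, 4 were tested, and in EMM the 3 collagen genes were lower at both passages, while Thy1, which other cells also express, was higher at P10 (log2 1.14, edgeR adjusted p = 0.000309) and at -0.17 at P20 (adjusted p = 0.573). The sum of 6 primed epiblast markers was 11195 to 12831 in P10 Serum/LIF and 3725 to 4914 in P10 EMM, but 6601 to 7350 and 7050 to 7755 at P20, and 1518 to 3162 in 2i/LIF. Dnmt3b, a DNA methyltransferase gene, led this sum, at 9823 ± 805 in P10 Serum/LIF and 3625 ± 532 in P10 EMM (SD, n = 3). Of the 5 tested at P20, EMM against Serum/LIF had 2 that rose and 1 that fell, with log2 values of -3.52 to 1.56. In the time course the sum was 21995 to 22385 at 0 h and 8468 to 8791 at 24 h, while 6 primitive endoderm markers summed to 408 to 443 and 739 to 752 and 6 trophoblast markers to 435 to 454 and 638 to 659. The sum of 6 neural markers was 4334 to 5141 at 0 h, 6783 to 7052 at 3 h and 5083 to 5458 at 24 h, and at P10 2978 to 3268 in Serum/LIF, 1529 to 1691 in EMM and 693 to 1047 in 2i/LIF. At P20 it was 1994 to 2176, 2109 to 2259 and 2373 to 2876. The trophoblast sum was 399 to 552 in Serum/LIF, 144 to 211 in EMM and 606 to 737 in 2i/LIF at P10, and 335 to 504, 175 to 186 and 489 to 670 at P20, and the primitive endoderm sum was 172 to 226, 109 to 125 and 91.5 to 103 at P10 and 226 to 315, 224 to 345 and 77.5 to 136 at P20. The part of such cells in the results below was not tested, and in bulk RNA fewer cells of a type and less RNA per cell cannot be told apart.

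The genes lie on 8 chromosomes of GRCm38 (GENCODE M21). Pou5f1 is at chr17:35506018-35510772, Sox2 at chr3:34650405-34652461, Nanog at chr6:122707489-122714633 and Sall4 at chr2:168748332-168767943. Utf1 is at chr7:139943789-139945112, Zscan10 at chr17:23600856-23611019, Lin28a at chr4:134003330-134018841 and Lin28b at chr10:45376620-45486395. Dppa4 (chr16:48283733-48294237) and Dppa2 (chr16:48303908-48319723) are neighbours on the same strand. Pou5f1, Sall4 and Lin28a each overlap exons of a non-coding gene on the other strand, and Sox2 lies inside the long non-coding gene Sox2ot on its own strand without sharing exons. Over all libraries of an experiment these 4 genes summed to 3 to 658 counts, and the Nanog pseudogenes Nanog-ps1 and Nanog-ps2 to at most 4, so their own counts are small beside those of the members. The strand setting of the counting is not given in the sources used here.

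RefSeq promoter windows of GRCm38.p6 (250 bases before a gene's start and 50 after) were at hand for 7 of the 10 members: Pou5f1, Sox2, Nanog, Utf1, Zscan10, Lin28a and Lin28b. Each was searched on both strands for the octamer-type word ATGCAAA, bound by OCT4, the SOX-type word CATTGT, and a composite of the SOX-type word, 1 base of any kind and the octamer-type word, which thus contains both. Of 32851 windows in the table, 4.63% held the octamer-type word, 12.6% the SOX-type word and 0.00609% the composite, which was 2 windows. Both of these were overlapping windows of Nanog. Sox2 held the octamer-type word alone, Lin28a and the second window of Pou5f1 held the SOX-type word alone, and the windows of Utf1, Zscan10 and Lin28b held neither. A match describes the letters and is not evidence of binding. The window of Sox2 ends before the start of the GENCODE gene, and the second window of Pou5f1 lies within its GENCODE gene. The windows of Nanog and Sox2 are shown because these genes moved differently between media, and those of Lin28a and Lin28b because the paralogs differ most in level. Matches are in capitals, 5′ to 3′ on the strand of the gene, and the windows are Nanog chr6:122707239-122707538 (plus), Sox2 chr3:34649745-34650044 (plus), Lin28a chr4:134018767-134019066 (minus) and Lin28b chr10:45470152-45470451 (minus), which starts within the GENCODE gene.
Nanog: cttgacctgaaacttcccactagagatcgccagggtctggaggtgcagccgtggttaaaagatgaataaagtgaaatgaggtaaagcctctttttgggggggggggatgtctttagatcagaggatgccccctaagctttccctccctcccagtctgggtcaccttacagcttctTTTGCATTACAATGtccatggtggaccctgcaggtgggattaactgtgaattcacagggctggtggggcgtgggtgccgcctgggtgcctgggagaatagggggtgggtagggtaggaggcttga
Sox2: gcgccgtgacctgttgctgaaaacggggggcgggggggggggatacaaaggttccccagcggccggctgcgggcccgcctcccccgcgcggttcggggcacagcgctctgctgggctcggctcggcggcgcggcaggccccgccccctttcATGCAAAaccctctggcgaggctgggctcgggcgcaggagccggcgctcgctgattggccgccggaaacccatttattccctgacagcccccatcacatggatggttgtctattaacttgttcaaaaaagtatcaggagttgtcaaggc
Lin28a: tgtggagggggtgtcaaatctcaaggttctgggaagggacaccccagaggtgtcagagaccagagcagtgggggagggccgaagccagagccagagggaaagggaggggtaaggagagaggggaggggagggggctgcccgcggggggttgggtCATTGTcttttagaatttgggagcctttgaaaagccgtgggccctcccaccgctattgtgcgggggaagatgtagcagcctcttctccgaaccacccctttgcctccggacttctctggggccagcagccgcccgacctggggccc
Lin28b: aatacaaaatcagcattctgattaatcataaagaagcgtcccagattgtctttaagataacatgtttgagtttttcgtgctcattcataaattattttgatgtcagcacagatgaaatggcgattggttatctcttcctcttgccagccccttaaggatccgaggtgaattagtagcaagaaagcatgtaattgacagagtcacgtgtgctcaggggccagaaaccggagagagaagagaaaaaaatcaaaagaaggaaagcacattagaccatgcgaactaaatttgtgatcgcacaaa
In Nanog the composite starts 75 bases before the annotated start, on the minus strand. The GC content of the window was 63.3% for Lin28a and 39% for Lin28b.

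The let-7 microRNAs that LIN28 proteins act on were not measured in these libraries. Their sequences are shown because the mRNAs of the Lin28 genes carry let-7 target words. All 9 mature let-7 family sequences in the RefSeq table share bases 2 to 8, the seed, in capitals below. The word that pairs with this seed, CTACCTC, was searched in the annotated 3′ untranslated region of the coding transcript with the longest coding sequence of each gene. It was found in 3 of 10 members: 4 times in Lin28b (4445 bases), 2 times in Lin28a (2775 bases) and once in Sall4 (1697 bases). Of 20979 genes with such a region, of median length 802 bases, 7.97% held the word. The 3 members that held it have the 3 longest of these regions among the 10, and the search made no correction for length. The sites are written with the 15 bases before the word and 1 base after it, which is an a in every site but Lin28b sites 2 to 4.
let-7a-5p: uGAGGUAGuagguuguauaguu
let-7g-5p: uGAGGUAGuaguuuguacaguu
Lin28a site 1: gcacagcctgttgaaCTACCTCa
Lin28a site 2: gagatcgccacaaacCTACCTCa
Lin28b site 1: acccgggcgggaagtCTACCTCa
Lin28b site 2: tatacttgttagtaaCTACCTCt
Lin28b site 3: gtttacagcacatggCTACCTCc
Lin28b site 4: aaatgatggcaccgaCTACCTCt
Sall4 site: agggctttaatttatCTACCTCa

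Levels between genes were compared as counts per kilobase of exon, scaled by the effective library size to the units of FPKM. In Serum/LIF of the time course, Pou5f1 stood highest at 475 ± 5.78 (SD, n = 3), followed by Utf1 at 439 ± 33.9, Sox2 at 341 ± 4.89, Nanog at 193 ± 7.07 and Lin28a at 117 ± 5.6. The highest Utf1 library stood just below the lowest Pou5f1 library. Dppa4 (72.3 ± 1.23), Sall4 (71.3 ± 3.5) and Zscan10 (60.7 ± 2.1) followed, of which Dppa4 and Sall4 did not differ beyond their spread, then Dppa2 at 27.8 ± 1.7. Lin28b was the lowest at 5.59 ± 0.426. Pou5f1 was also the highest and Lin28b the lowest of the 10 in each of the 6 passage groups, where Pou5f1 ranged from 479 ± 58 (P10 2i/LIF) to 780 ± 94.4 (P10 EMM) and Lin28b from 0.518 ± 0.203 (P20 2i/LIF) to 4.72 ± 0.472 (P10 Serum/LIF). The order between these ends depended on the medium. Utf1 was next to Pou5f1 in P10 Serum/LIF and in EMM, at 193 ± 7.23 to 236 ± 18.2. In 2i/LIF, at 34.6 ± 13.6 (P10) and 70.0 ± 12.2 (P20), it stood below Sox2 and Nanog.

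Within hours of the move to EMM the members moved in both directions and by little, none by as much as 1 on the log2 scale. A gene is said to pass where edgeR's quasi-likelihood test gave a Benjamini-Hochberg adjusted p under 0.01 over all genes tested. At 3 h, 2 members were higher (Zscan10, Lin28a) and 4 lower (Sox2, Nanog, Dppa2, Dppa4), where 16.3% of all genes were higher and 18.2% lower. At 9 h, 1 was higher (Zscan10) and 6 lower (Pou5f1, Sox2, Utf1, Lin28b, Dppa2, Dppa4), with 18.5% and 19.7% of all genes. At 24 h, 1 was higher (Zscan10) and 3 lower (Sox2, Utf1, Lin28b), with 21.8% and 22.2% of all genes. The median log2 change of the 10 was -0.14, -0.18 and -0.09 at the 3 times, beside -0.01, 0.00 and 0.00 for all genes tested. The 3 comparisons share the same Serum/LIF libraries. Between 3 and 9 h, 2 members rose (Sox2, Nanog) and 5 fell (Pou5f1, Utf1, Zscan10, Lin28a, Lin28b), with 13.7% and 12.9% of all genes. Between 9 and 24 h, 2 rose (Nanog, Dppa4) and 0 fell in the main edgeR fit, with 7% and 6.02% of all genes. At an unadjusted p under 0.05, 2 fell (Lin28a and Lin28b). DESeq2 called 1 of them (Lin28b), as did edgeR with the replicate numbers of the sample descriptions as a block. The call of Nanog was lost with only the groups compared and without EMM 9 h replicate 1 or 2 or EMM 24 h replicate 2.

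**Figure D1:**
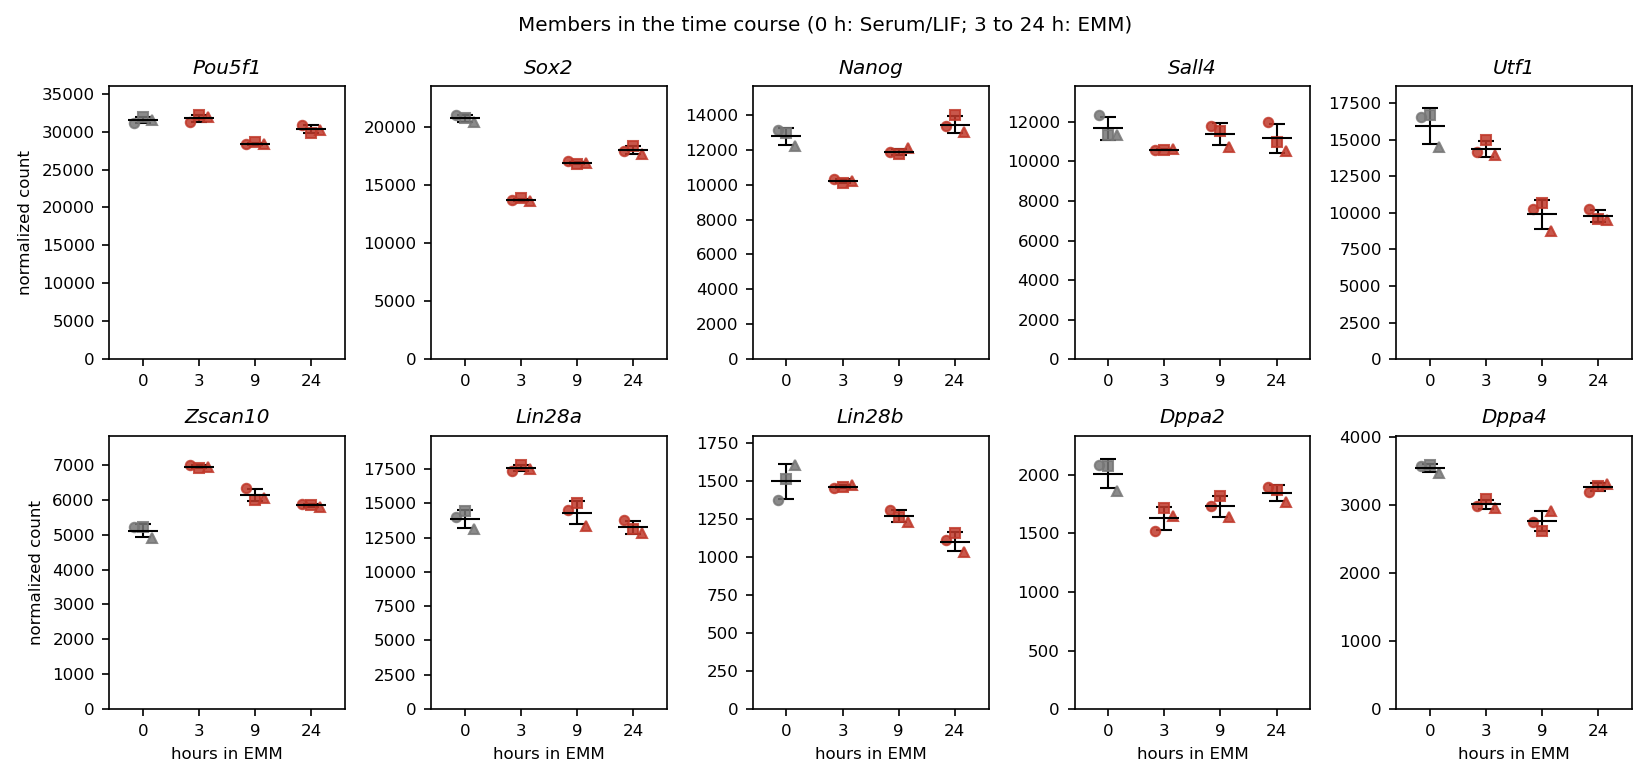
Normalized counts of the 10 members in the 12 time-course libraries, by hours in EMM (0 h is Serum/LIF, grey; EMM, red). Points are libraries with a marker shape for each replicate number, and bars are the mean and SD of 3 libraries; Sox2 dips to 13649 to 13850 at 3 h, and Utf1 and Lin28b are lowest at 24 h on average.

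Sox2 had the largest drop at 3 h. Its normalized counts (counts scaled to a common effective library size) were 21019, 20813 and 20433 in Serum/LIF, then 13729, 13850 and 13649 at 3 h, 17037, 16845 and 16932 at 9 h, and 17933, 18392 and 17716 at 24 h. No EMM library reached the lowest Serum/LIF library, and the 3 h libraries lay below all later ones. It fell by 0.59 on the log2 scale at 3 h (SE 0.03, edgeR adjusted p = 1.29e-09), and was -0.29 (SE 0.03, edgeR adjusted p = 1.53e-06) at 9 h and -0.20 (SE 0.03, edgeR adjusted p = 4.08e-05) at 24 h. Nanog followed the same early course with a smaller drop. It had 13099, 12958 and 12227 in Serum/LIF, 10299, 10084 and 10176 at 3 h, 11854, 11736 and 12076 at 9 h, and 13349, 13967 and 12991 at 24 h. The 3 h libraries were separate from all others, while the 24 h libraries overlapped those in Serum/LIF. At 3 h it fell by 0.33 (SE 0.04, edgeR adjusted p = 4.78e-06), with -0.10 and 0.07 at 9 and 24 h, which did not pass (adjusted p = 0.0326 and 0.105).

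Pou5f1, the third core factor, passed at 1 of the 3 times. Its counts were 31163, 31928 and 31495 in Serum/LIF, 31213, 32144 and 31865 at 3 h, 28298, 28574 and 28302 at 9 h, and 30889, 29802 and 30214 at 24 h. Only the 9 h value passed, at -0.15 in log2 (SE 0.03, edgeR adjusted p = 0.000632), a call that was lost when no filter on low counts was used. At 3 h the log2 fold change was 0.01 with a 95% interval of -0.06 to 0.08, and at 24 h it was -0.06 (adjusted p = 0.119). Within a library, the Sox2 level per kilobase was a factor of 0.719 of that of Pou5f1 in Serum/LIF and 0.473 at 3 h of EMM, a difference of -0.60 in the log2 ratio with no overlap of libraries (exact two-sided permutation p = 0.1, the smallest that 3 against 3 allows).

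Among the partner factors, Zscan10 rose and Utf1 fell, at different times. Zscan10 had 5229, 5213 and 4915 in Serum/LIF and 6995, 6922 and 6934 at 3 h, then 6328, 6003 and 6052 at 9 h and 5889, 5858 and 5802 at 24 h. Every EMM library was above every Serum/LIF library and the 3 h libraries were highest. The log2 fold changes were 0.44 (SE 0.04, edgeR adjusted p = 1.21e-07), 0.26 and 0.19 at the 3 times, and all passed. Utf1 had 16560, 16659 and 14484 in Serum/LIF, 14167, 14983 and 13939 at 3 h, 10250, 10670 and 8789 at 9 h, and 10263, 9589 and 9515 at 24 h. At 3 h the groups overlapped, at -0.15 in log2 (edgeR adjusted p = 0.0862). The values at 9 and 24 h lay below all of these, at -0.68 (SE 0.07, edgeR adjusted p = 9.4e-07) and -0.70 (SE 0.07, edgeR adjusted p = 5.06e-07). Sall4 ran from 10542 to 12329 over the 12 libraries and passed at no time, with log2 fold changes of -0.14, -0.04 and -0.06 and adjusted p of 0.0332, 0.563 and 0.31.

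The Lin28 paralogs differed in course. Lin28a had 13984, 14466 and 13158 in Serum/LIF and 17366, 17777 and 17472 at 3 h, a separate and higher group, then 14525, 15019 and 13362 at 9 h and 13768, 13142 and 12815 at 24 h. The log2 fold change was 0.34 (SE 0.05, edgeR adjusted p = 3.02e-05) at 3 h, with 0.04 and -0.07 at 9 and 24 h, which did not pass (adjusted p = 0.464 and 0.246). Lin28b, an order of magnitude lower, had 1377, 1511 and 1604 in Serum/LIF and 1453, 1459 and 1475 at 3 h, which overlapped. It had 1308, 1263 and 1230 at 9 h and 1110, 1156 and 1035 at 24 h, all below the lowest Serum/LIF library. Lin28b fell by 0.24 in log2 at 9 h (SE 0.06, edgeR adjusted p = 0.00226) and by 0.45 at 24 h (SE 0.06, edgeR adjusted p = 9.2e-06). The 9 h call was lost with only the groups compared and when SL 0 h replicate 2, SL 0 h replicate 3 or EMM 9 h replicate 3 was left out, with log2 values of -0.29 to -0.18 over all such fits. The fall of Lin28b from 3 to 9 h (log2 -0.21, edgeR adjusted p = 0.00869) was lost whichever of the 6 libraries was left out, with library totals alone and with the title number as a block.

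Dppa2 and Dppa4, whose proteins act as a pair, were both lower at 3 and 9 h. Dppa4 had 3580, 3588 and 3479 in Serum/LIF, 2992, 3084 and 2953 at 3 h, 2758, 2618 and 2916 at 9 h, and 3194, 3282 and 3313 at 24 h, with no EMM library as high as a Serum/LIF library. Its log2 fold change was -0.24 (SE 0.04, edgeR adjusted p = 0.000206), -0.36 (SE 0.04, edgeR adjusted p = 3.47e-06) and -0.12, and the last did not pass (adjusted p = 0.0194). Dppa2 had 2084, 2076 and 1867 in Serum/LIF and 1525, 1715 and 1650 at 3 h, then 1737, 1821 and 1637 at 9 h and 1896, 1871 and 1773 at 24 h, where the groups again overlapped. Its log2 fold change was -0.30 at 3 h (SE 0.06, edgeR adjusted p = 0.000524), -0.21 at 9 h (adjusted p = 0.00577) and -0.12 at 24 h (adjusted p = 0.0845). The 9 h call was lost with the description numbers as a block, with only the groups compared, and without SL 0 h replicate 1 or 2 or EMM 9 h replicate 1 or 3. Genes of the 2-cell embryo that DPPA2 and DPPA4 act on were near the floor in this experiment, where 10 of them summed to 2.09 to 9.49 normalized counts per library.

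After passaging, the calls differed by medium and by passage. Against Serum/LIF at P10, EMM had 6 members higher (Pou5f1, Sox2, Sall4, Zscan10, Dppa2, Dppa4) and 2 lower (Lin28a, Lin28b), where 18.7% of all genes were higher and 18.7% lower. At P20, 4 were higher (Sall4, Zscan10, Lin28a, Dppa4) and 1 lower (Nanog), with 13.6% and 12.5% of all genes. Against 2i/LIF, EMM had 9 members higher and 1 lower (Nanog) at P10, with 22.9% and 22.2% of all genes, and 8 higher and 1 lower (Nanog) at P20, with 25.7% and 22.9%. 2i/LIF had 2 members higher (Nanog, Zscan10) and 6 lower (Sall4, Utf1, both Lin28 and both Dppa genes) than Serum/LIF at P10, with 26.4% and 25.6% of all genes. At P20 it had 1 higher (Nanog) and 6 lower (Sox2 in place of Sall4), with 21% and 23.2%. The P10 call of Zscan10 (log2 0.31, edgeR adjusted p = 0.00591) was lost in 5 of 7 other settings and in 4 of 6 fits without a library (P10 2i/LIF replicate 2 or 3, P10 SL replicate 1 or 2). The comparisons at a passage share libraries. The median log2 change of the 10 in EMM was 0.49 at P10 and 0.21 at P20 against Serum/LIF, and 1.13 and 1.20 against 2i/LIF, beside at most 0.02 for all genes tested. The chromosome 6 genes, Nanog among them, had a median of 0.33 between P20 2i/LIF and P20 Serum/LIF.

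**Figure D2:**
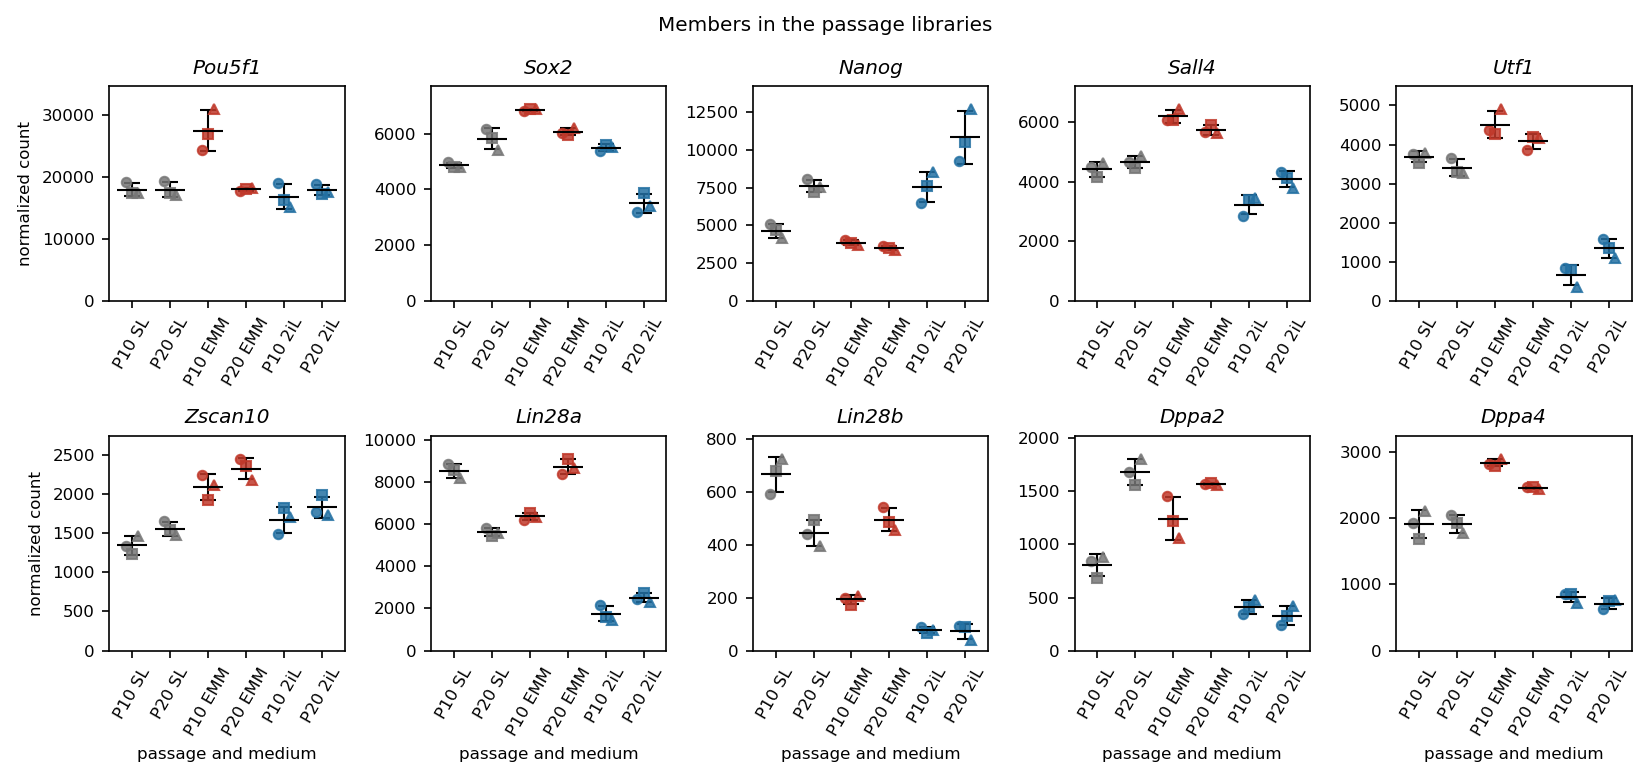
Normalized counts of the 10 members in the 18 passage libraries (Serum/LIF, grey; EMM, red; 2i/LIF, blue). Points are libraries with a marker shape for each replicate number, and bars are the mean and SD of 3 libraries; Utf1, Lin28a, Lin28b, Dppa2 and Dppa4 are lowest in the 2i/LIF groups, where Nanog is high.

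**Figure D3:**
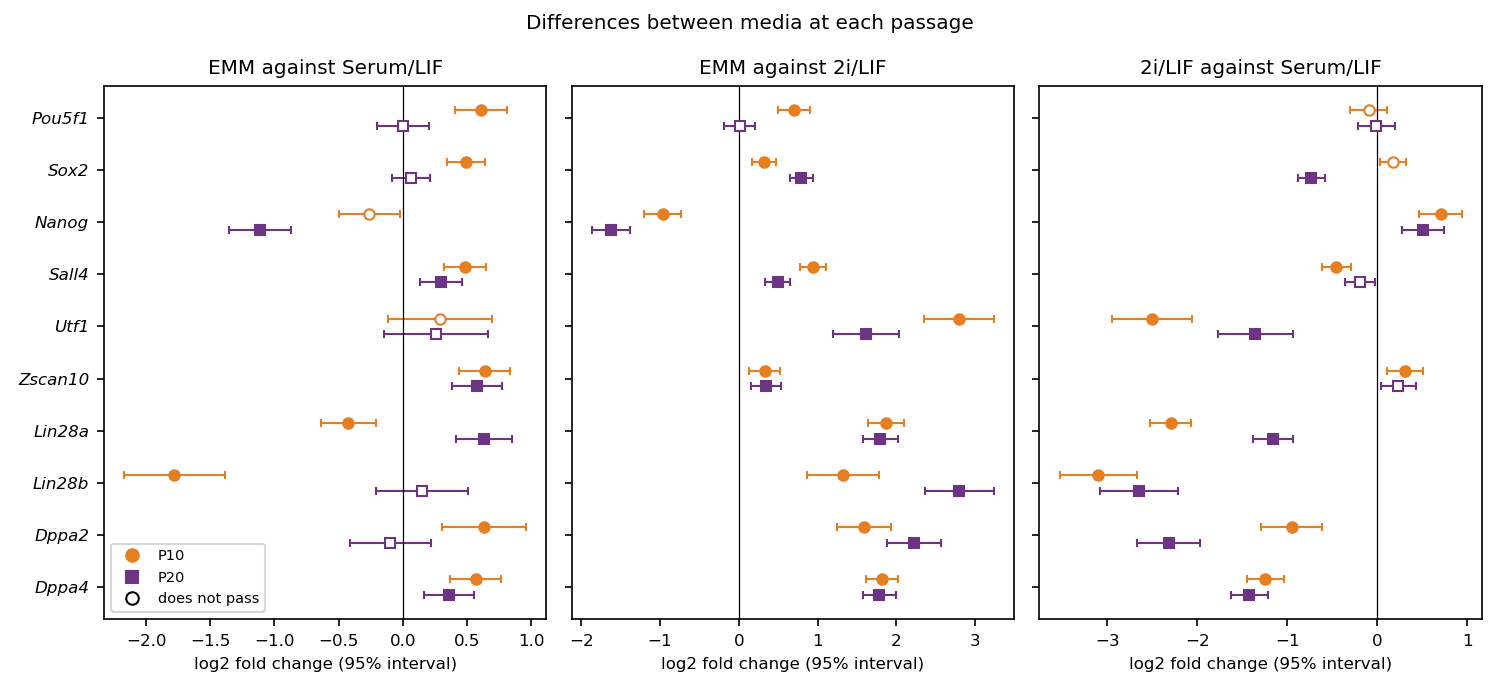
Log2 fold changes of each member between media at P10 (orange circles) and P20 (purple squares), with 95% intervals from edgeR; filled points pass at an adjusted p under 0.01. Lin28a and Lin28b at P10 and Nanog at P20 are the members lower in EMM than in Serum/LIF, and Nanog alone is lower in EMM than in 2i/LIF.

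Nanog, the core factor known for its high level in 2i/LIF, was the one member lower in EMM than in 2i/LIF. It had 6490, 7588 and 8518 in P10 2i/LIF and 9260, 10526 and 12697 in P20 2i/LIF. EMM had 4021, 3819 and 3711 at P10 and 3628, 3526 and 3380 at P20, the lowest 6 values of the 18 libraries. Serum/LIF had 5062, 4659 and 4133 at P10 and 8033, 7202 and 7534 at P20, so the passages did not overlap in that medium. Against Serum/LIF, the log2 fold change in EMM was -0.26 (SE 0.11) at P10, which did not pass (adjusted p = 0.0541), and -1.11 (SE 0.11, edgeR adjusted p = 4.41e-07) at P20. The P10 value passed with no filter on low counts (edgeR adjusted p = 0.00213). Serum/LIF itself rose by 0.72 from P10 to P20 (SE 0.11, edgeR adjusted p = 0.000326), while the value in EMM was -0.13 (adjusted p = 0.348). Relative to the median of its chromosome, the difference of Nanog was -1.29 between EMM and 2i/LIF at P20, and 0.19 in place of 0.51 between P20 2i/LIF and P20 Serum/LIF. Its rise from P10 to P20 in 2i/LIF was 0.52, and 0.35 relative to its chromosome.

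Pou5f1 was level across media and passages apart from 1 group. It had 24339, 26877 and 30907 in P10 EMM, and between 15068 and 19316 in each of the other 15 libraries. The log2 fold change in P10 EMM was 0.61 (SE 0.09, edgeR adjusted p = 2.8e-05) against Serum/LIF and 0.70 (SE 0.09, edgeR adjusted p = 4.26e-06) against 2i/LIF. At P20 the values were 0.00 against Serum/LIF (95% interval -0.20 to 0.20) and 0.01 against 2i/LIF (95% interval -0.19 to 0.21). Sox2 had 6800, 6884 and 6872 in P10 EMM and 6029, 5965 and 6216 in P20 EMM. It had 4972, 4798 and 4814 in P10 Serum/LIF, 6169, 5852 and 5423 in P20 Serum/LIF, 5379, 5609 and 5505 in P10 2i/LIF, and 3193, 3875 and 3419 in P20 2i/LIF. P10 EMM stood above every other group and P20 2i/LIF below every other group. The log2 fold change in EMM was 0.50 at P10 and 0.06 at P20 against Serum/LIF, of which the first passed (edgeR adjusted p = 9.72e-06 and 0.507), and 0.32 and 0.79 against 2i/LIF, which both passed.

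The ratio of Nanog to Pou5f1 within a library set the media apart. Per kilobase, Nanog was a factor of 0.142 of Pou5f1 in P10 EMM and 0.196 in P20 EMM, against 0.258 and 0.425 in Serum/LIF and 0.449 and 0.604 in 2i/LIF. In log2, the ratio in EMM differed from that in Serum/LIF by -0.86 at P10 and -1.11 at P20, and from that in 2i/LIF by -1.66 and -1.62. No EMM library overlapped one of the other media at the same passage (exact two-sided permutation p = 0.1 for each, the smallest possible).

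Sall4 and Zscan10 were higher in EMM than in both other media at both passages. Sall4 had 6069, 6096 and 6451 in P10 EMM and 5678, 5930 and 5628 in P20 EMM, 4514, 4149 and 4624 in P10 Serum/LIF, 4677, 4459 and 4858 in P20 Serum/LIF, and 2866 to 4326 in the 6 libraries of 2i/LIF. No library of another medium reached the lowest EMM library. Against Serum/LIF the log2 fold change was 0.49 (SE 0.07, edgeR adjusted p = 3.12e-05) at P10 and 0.30 (SE 0.07, edgeR adjusted p = 0.00374) at P20. The P20 call was lost with library totals alone and without P20 EMM replicate 1 or 2 or P20 SL replicate 1 or 2, at log2 values of 0.21 to 0.33. Zscan10 had 2239, 1916 and 2117 in P10 EMM and 2446, 2348 and 2172 in P20 EMM, 1227 to 1648 in Serum/LIF and 1486 to 1981 in 2i/LIF. Its log2 fold change against Serum/LIF was 0.64 (SE 0.09, edgeR adjusted p = 1.3e-05) at P10 and 0.58 (SE 0.09, edgeR adjusted p = 5.96e-05) at P20, and against 2i/LIF 0.33 and 0.34 (adjusted p = 0.0051 and 0.00287). The P10 call against 2i/LIF was lost with library totals alone and with only the groups compared. Each call against 2i/LIF was lost when 1 of 4 libraries was left out, replicates 1 and 3 of P10 2i/LIF and of P10 EMM, and replicates 1 and 3 of P20 2i/LIF and 1 and 2 of P20 EMM.

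Utf1 separated 2i/LIF from the serum media. It had 838, 784 and 362 in P10 2i/LIF and 1574, 1343 and 1105 in P20 2i/LIF, and between 3276 and 4909 in the 12 libraries of Serum/LIF and EMM. EMM was 6.92-fold higher than 2i/LIF at P10 (log2 2.79, SE 0.21, edgeR adjusted p = 2.29e-09) and 3.06-fold higher at P20 (log2 1.61, SE 0.19, edgeR adjusted p = 1.01e-06). Against Serum/LIF the log2 fold change in EMM was 0.29 and 0.26, with 95% intervals of -0.12 to 0.70 and -0.14 to 0.67, and passed at neither passage, though both values passed with only the groups compared (edgeR adjusted p = 0.00953 and 0.00367). In 2i/LIF, Utf1 rose by 1.03 from P10 to P20 (SE 0.20, edgeR adjusted p = 0.000485), a call lost with only the groups compared (adjusted p = 0.0262).

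Lin28b gave the widest range of the members, and its level in EMM depended on the passage. It had 201, 175 and 208 in P10 EMM and 543, 488 and 458 in P20 EMM, which do not overlap. Serum/LIF had 595, 682 and 727 at P10 and 442, 496 and 398 at P20, and 2i/LIF had 91.0, 65.4 and 77.4 at P10 and 91.6, 87.9 and 40.2 at P20. Against Serum/LIF, the log2 fold change of Lin28b in EMM was -1.78 at P10 (SE 0.18, edgeR adjusted p = 2.4e-07) and the value at P20 was 0.15 (SE 0.17, adjusted p = 0.505). Against 2i/LIF it was 2.5-fold higher at P10 (edgeR adjusted p = 3.16e-05) and 6.96-fold higher at P20 (edgeR adjusted p = 9.71e-10). From P10 to P20 it rose by 1.35 in EMM (SE 0.18, edgeR adjusted p = 1.65e-05), whereas the value in Serum/LIF was -0.58 and did not pass (adjusted p = 0.026). The Serum/LIF value did pass with no filter on low counts, with DESeq2 and with only the groups compared.

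Lin28a went the same way in EMM with smaller steps. It had 6208, 6529 and 6348 in P10 EMM and 8388, 9093 and 8645 in P20 EMM, 8834, 8556 and 8193 in P10 Serum/LIF and 5817, 5456 and 5566 in P20 Serum/LIF. In 2i/LIF it had 2147, 1611 and 1473 at P10 and 2467, 2734 and 2329 at P20, below every library of the serum media. EMM against Serum/LIF was -0.42 at P10 (SE 0.10, edgeR adjusted p = 0.00178). The P20 value was 0.63, with an SE of 0.10 and an edgeR adjusted p of 7.26e-05, with no overlap of libraries at either passage. The P10 call was lost without P10 SL replicate 1. Against 2i/LIF, EMM was 3.66-fold higher at P10 and 3.47-fold higher at P20 (edgeR adjusted p = 5.46e-11 and 5.68e-11). The order of Serum/LIF and EMM thus turned between the passages, with Serum/LIF falling by 0.60 (edgeR adjusted p = 0.000652) and EMM rising by 0.45 (edgeR adjusted p = 0.0017).

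**Figure D4:**
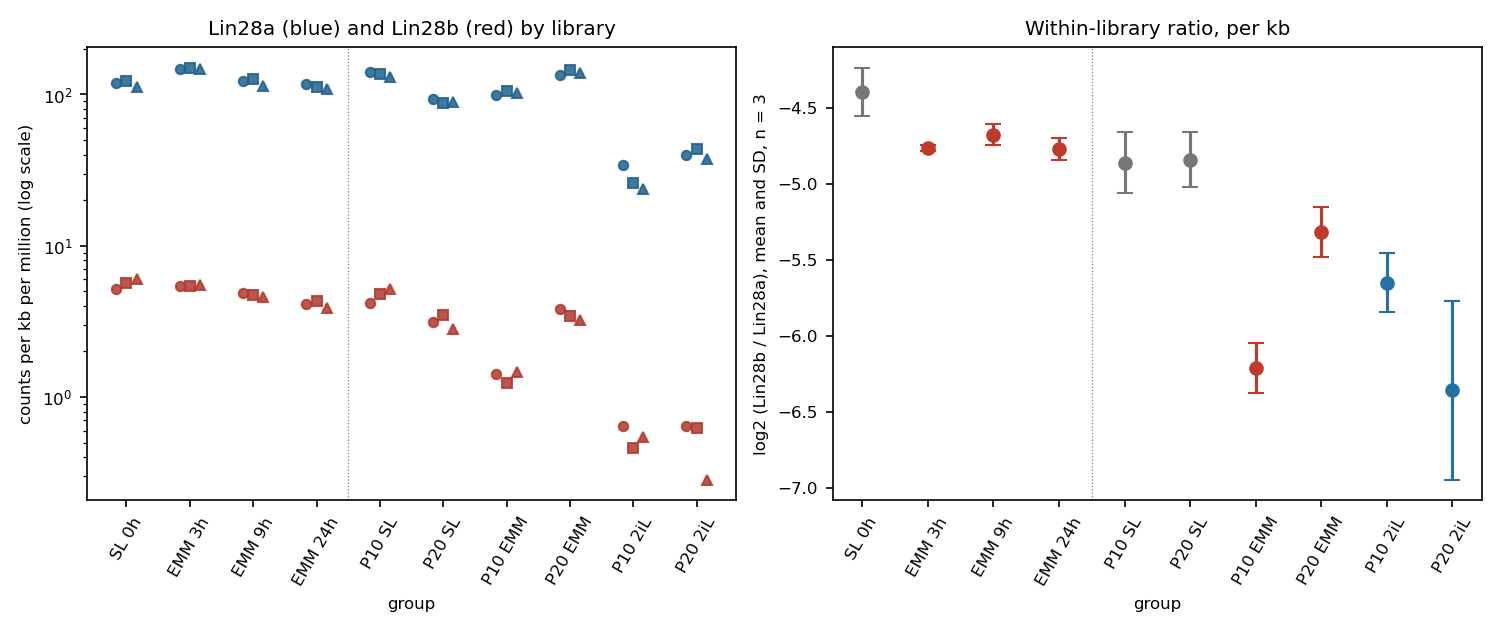
Left, Lin28a (blue) and Lin28b (red) in each of the 30 libraries, in counts per kilobase in FPKM units on a log axis, with a marker shape for each replicate number. Right, the log2 ratio of Lin28b to Lin28a within a library, mean and SD of 3 (grey Serum/LIF, red EMM, blue 2i/LIF); the dotted line parts the experiments, and P10 EMM and P20 2i/LIF have the lowest ratios at -6.21 and -6.36.

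The share of the pair that was Lin28b was small and differed between the media. Per kilobase, Lin28a exceeded Lin28b by a factor of 21.03 in Serum/LIF of the time course and of 29.0 and 28.7 in P10 and P20 Serum/LIF. The factor was 74.1 in P10 EMM and 39.8 in P20 EMM, and 50.1 and 81.9 in 2i/LIF. In log2, the ratio of Lin28b to Lin28a in EMM differed from that in Serum/LIF by -1.35 at P10 and -0.48 at P20, and the libraries did not overlap (exact two-sided permutation p = 0.1 for each, the smallest possible). P20 2i/LIF had the widest spread, with log2 ratios of -7.02 to -5.91, and its lowest library, replicate 3, had 40.2 normalized counts of Lin28b.

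Dppa4 and Dppa2 were lower in 2i/LIF than in both serum media. Dppa4 had 855, 851 and 717 in P10 2i/LIF and 623, 743 and 766 in P20 2i/LIF, 2824, 2787 and 2896 in P10 EMM and 2474, 2464 and 2442 in P20 EMM. Serum/LIF lay between, at 1933, 1687 and 2114 and at 2050, 1924 and 1778. EMM was 3.52-fold higher than 2i/LIF at P10 and 3.44-fold higher at P20 (edgeR adjusted p = 2.45e-11 and 2.17e-11). Against Serum/LIF the log2 fold change was 0.57 (SE 0.09, edgeR adjusted p = 4.63e-05) and 0.36 (SE 0.09, edgeR adjusted p = 0.00419). The P20 call was lost with library totals alone and without any 1 of 5 libraries, P20 SL replicate 1 being the exception.

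Dppa2 rose with passage in Serum/LIF. It had 847, 687 and 882 in P10 Serum/LIF and 1677, 1558 and 1806 in P20 Serum/LIF, a 2.09-fold rise (log2 1.06, SE 0.15, edgeR adjusted p = 0.000167). EMM had 1454, 1217 and 1056 at P10 and 1567, 1579 and 1562 at P20, and 2i/LIF had 344, 414 and 481 and 242, 328 and 417. EMM was above Serum/LIF at P10 by 0.63 in log2 (SE 0.15, edgeR adjusted p = 0.00184), lost without P10 EMM replicate 1 or P10 SL replicate 2, and at P20 it was -0.10 (95% interval -0.41 to 0.22). Against 2i/LIF it was 3.0-fold higher at P10 and 4.66-fold higher at P20 (edgeR adjusted p = 1.19e-07 and 1.08e-09). The ratio of Dppa2 to Dppa4 within a library was 0.286 in P10 Serum/LIF and 0.595 in P20 Serum/LIF, with no overlap (exact two-sided permutation p = 0.1, the smallest possible). The 2-cell genes summed to 345 to 676 normalized counts in P10 Serum/LIF and 910 to 2053 in P20 Serum/LIF, but to 397 to 1221 in P10 2i/LIF and 8.87 to 67.1 in P20 2i/LIF, where both Dppa genes were low. In EMM, where Dppa4 was highest, they summed to 31.2 to 80.2 at P10 and 60.9 to 113 at P20. Of the 7 such genes tested, 6 of them Zscan4 copies that can share reads, 0 passed in edgeR between P10 and P20 Serum/LIF (log2 1.30 to 2.02, adjusted p = 0.0116 to 0.172), 6 had an unadjusted p under 0.05, and DESeq2 called 1. In EMM against Serum/LIF, 5 of the 7 fell at P10 and 7 at P20, and P20 2i/LIF had 7 that fell against P20 Serum/LIF and 6 against P10 2i/LIF, with equal counts in DESeq2.

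Between the passages, 3 to 5 of the members changed in each medium. From P10 to P20, Serum/LIF had 2 members higher (Nanog, Dppa2) and 1 lower (Lin28a), where 3.16% of all genes were higher and 2.85% lower. EMM had 2 higher (Lin28a, Lin28b) and 1 lower (Pou5f1), with 13.3% and 11.9% of all genes. 2i/LIF had 4 higher (Nanog, Sall4, Utf1, Lin28a) and 1 lower (Sox2), with 13.1% and 15.2% of all genes, and the 4 higher calls were lost with only the groups compared (edgeR adjusted p = 0.0216, 0.0288, 0.0262 and 0.0266). No member passed in the same direction in all 3 media.

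Whether the difference between media itself changed from P10 to P20 was tested by an interaction term in the same edgeR fit. For EMM against Serum/LIF, 5 members passed (Pou5f1, Sox2, Nanog, Lin28a, Lin28b), where 14.7% of all genes did. Dppa2, at -0.73, did not. It passed with no filter on low counts, with DESeq2, with only the groups compared and without P10 EMM replicate 3. For EMM against 2i/LIF, 6 passed (Pou5f1, Sox2, Nanog, Sall4, Utf1, Lin28b), with 32.3% of all genes. For 2i/LIF against Serum/LIF, 4 passed (Sox2, Utf1, Lin28a, Dppa2), with 20% of all genes. The 3 terms share libraries. The largest were those of Lin28b, at 1.93 (SE 0.24, edgeR adjusted p = 1.42e-05) for EMM against Serum/LIF and 1.48 (SE 0.29, edgeR adjusted p = 0.000505) for EMM against 2i/LIF. Zscan10 and Dppa4 passed in none.

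**Figure D5:**
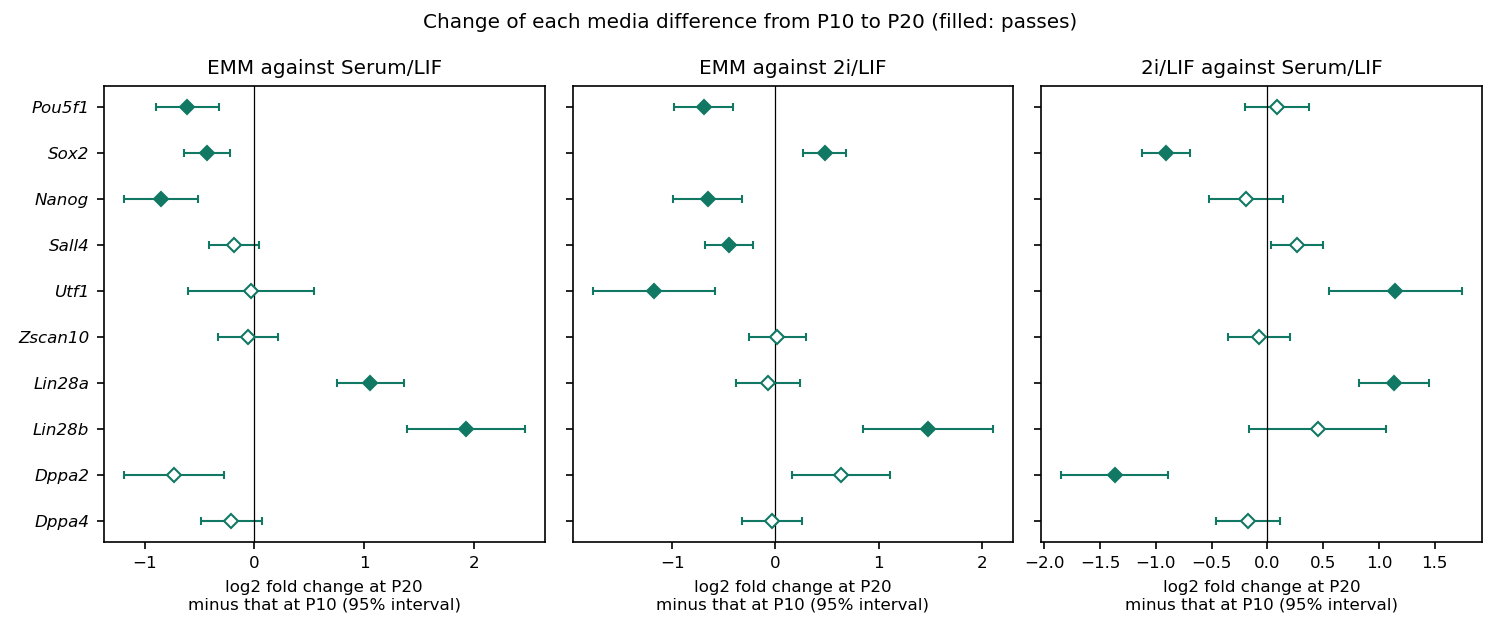
The log2 fold change between media at P20 minus that at P10, for each member and pair of media, with 95% intervals from edgeR; filled diamonds pass at an adjusted p under 0.01. Lin28b lies furthest to the right in both comparisons with EMM (1.93 and 1.48), and Dppa2 furthest to the left for 2i/LIF against Serum/LIF (-1.37).

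Other genes of the pluripotency network were counted in the same way. Of 22 general pluripotency genes, 5 were higher and 9 lower at 24 h of EMM (median log2 -0.03), where 21.8% of all genes were higher and 22.2% lower. Against Serum/LIF, 13 were higher and 1 lower in EMM at P10 (median 0.54, 18.7% of all genes each way), and 3 higher and 3 lower at P20 (median 0.09, 13.6% and 12.5%). Against 2i/LIF, 12 were higher and 3 lower at P10 (median 0.44, 22.9% and 22.2% of all genes), and 9 higher and 7 lower at P20 (median 0.15, 25.7% and 22.9%). Dppa3, a maternal factor that protects DNA methylation, fell the most of the list in all 3 comparisons named by rule. Its log2 fold change was -2.02 at 24 h, and in P20 EMM -3.46 against Serum/LIF and -3.83 against 2i/LIF (edgeR adjusted p = 5.26e-11, 5.22e-06 and 3.73e-07). The P20 2i/LIF libraries of Dppa3 spread widely, at 522 ± 353 normalized counts against 37.1 ± 3.52 in P20 EMM (SD, n = 3). The largest rises were those of Tcl1 at 24 h (0.72), Gdf3 in P20 EMM against Serum/LIF (0.70) and Eras, an ESC-expressed Ras gene, in P20 EMM against 2i/LIF (4.38).

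Among 15 genes around LIN28 and let-7 (terminal uridylyl transferases, processing enzymes and let-7 targets), 5 were higher and 5 lower at 24 h of EMM, where 21.8% and 22.2% of all genes were. In P20 EMM, 3 rose and 2 fell against Serum/LIF (13.6% and 12.5% of all genes), and 5 rose and 5 fell against 2i/LIF (25.7% and 22.9%). In P10 EMM, 2 rose and 4 fell against Serum/LIF (18.7% each way), and 1 rose and 8 fell against 2i/LIF (22.9% and 22.2%), with a median log2 of -0.33 in the latter. Hmga2, a chromatin protein whose mRNA is a known let-7 target, had the largest rise at 24 h (log2 1.04, SE 0.05) and the largest fall in P20 EMM against Serum/LIF (-0.81, SE 0.18). Mycn, another gene known to be targeted by let-7, had the largest fall at 24 h (-1.51, SE 0.04) and the largest rise in P20 EMM against 2i/LIF (0.96, SE 0.10). Igf2bp2 rose most in P20 EMM against Serum/LIF (0.87), and Igf2bp3 fell most against 2i/LIF (-1.83).

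Of 10 paralogs of the members, 9 were tested. At 24 h of EMM, 1 was higher and 4 lower (21.8% and 22.2% of all genes), with Sox1 at 1.48 and Sall2 at -1.60 in log2. In P10 EMM, 2 rose and 2 fell against Serum/LIF (18.7% each way), and 3 rose and 2 fell against 2i/LIF (22.9% and 22.2%). In P20 EMM, 4 rose and 2 fell against Serum/LIF (13.6% and 12.5% of all genes), with Sox1 at 1.88 and Sall3 at -1.42. Against 2i/LIF, 6 were higher and 1 lower (25.7% and 22.9%), with Pou2f2 at 445 ± 48.2 normalized counts against 3.05 ± 0.745 (SD, n = 3) and Sall3 at -2.12. Sox1, a neural relative of Sox2, had 152 ± 15.2 normalized counts in P20 EMM, far below the 6070 ± 131 of Sox2.

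Across the 18 passage libraries, the genes with the pattern most like each member were taken by Pearson's r of log2 scaled counts, over libraries that share 6 groups. Utf1 and Lin28a were alike among the members (r = 0.945), as were Lin28a and Lin28b (r = 0.90) and Dppa2 and Dppa4 (r = 0.90), and Nanog ran against Dppa4 (r = -0.838). Of all genes tested, Nr0b1 and Slc28a1 were most like Sox2 (r = 0.979 and 0.978), Ngrn and Hspb1 most like Pou5f1 (0.975 and 0.962), and Gm49089 and Xlr4a most like Nanog (0.968 and 0.956). For the partner factors they were Icam1 and Med22 for Sall4 (0.973 and 0.963), Trp53i11 and Crocc2 for Utf1 (0.981 and 0.981), and Sema4b and Sun1 for Zscan10 (0.937 and 0.936). For the rest they were Snn and Pdzd4 for Lin28a (0.986 and 0.985), Slc39a8 and Jph4 for Lin28b (0.980 and 0.980), Gfpt2 for Dppa2 (0.962), and Slc39a14 and Dpysl3 for Dppa4 (0.989 and 0.984). Over the 12 time-course libraries Sox2 ran against Zscan10 (r = -0.968).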

How the data were processed

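Neither table is normalized. The time course was deposited as whole-number counts per gene. The passage experiment was deposited by the authors as estimated counts per gene. The submitters' processing notes name STAR, featureCounts, Salmon, DESeq2 and the build mm10 without their roles. Of the estimated counts, 9.982% were not whole, and they were rounded. Each column was matched to its library by the labels. Of 52630 and 55487 identifiers, 52397 and 55141 matched a symbol.

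Each experiment was fitted with edgeR 4.0.16 (R 4.3.3), all groups in 1 model without covariates: filterByExpr, TMM scaling and the quasi-likelihood test, with Benjamini-Hochberg adjustment over all genes tested. A gene passed at an adjusted p under 0.01. Normalized counts are counts put on a common library size, the mean after TMM scaling. Levels per kilobase use the exon length in GENCODE M21. Pseudocounts of 0.5 were used in ratios within a library and a prior count of 2 on the log2 scale. The fit was also run on simulated counts with known changes, and the outcome is not given here. Totals of 6944918 counts or more set the precision. A gene at 3 counts or fewer in every library of a group was taken as at the floor, and floors cover counting error only.

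The members and gene lists were chosen with earlier results of these data known. The named genes were the members, the largest passing rise and fall of 3 lists in 3 comparisons, the 2 genes most like each member (1 of which is not reported here), and overlapping genes. Genes named outside this rule (Col1a1, Thy1, Dnmt3b and the Zscan4 copies) were chosen after their values were seen. Alternatives were DESeq2 size factors, library totals alone, no filter, at least 10 counts in every library, DESeq2 1.42.0, only the groups compared, the replicate numbers as a block, each library left out, an adjusted p under 0.05, and a log2 fold change over 1 in size.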

Additional observations from a re-analysis of the deposited data

Results flagged for a closer look

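In 15 cases the difference of a member between 2 media was not the same at P10 and P20 by the interaction term in edgeR, each value being the log2 fold change at P20 minus that at P10. For EMM against Serum/LIF these were Pou5f1 at -0.61, Sox2 at -0.43, Nanog at -0.85, Lin28a at 1.06 and Lin28b at 1.93. The term of Sox2 was lost without a filter on low counts, without P10 SL replicate 2 and without P20 EMM replicate 2. For Lin28a the direction itself turned, from lower in EMM at P10 to higher at P20. For EMM against 2i/LIF they were Pou5f1 at -0.70, Sox2 at 0.48, Nanog at -0.66, Sall4 at -0.45, Utf1 at -1.18 and Lin28b at 1.48. For 2i/LIF against Serum/LIF they were Sox2 at -0.91, Utf1 at 1.15, Lin28a at 1.13 and Dppa2 at -1.37. The term of Utf1 was lost with only the groups compared and without P10 SL replicate 1, P20 SL replicate 2 or P20 SL replicate 3. Relative to the median of its chromosome, the term of Sox2 was 0.30 for EMM against 2i/LIF and -0.78 for 2i/LIF against Serum/LIF, and that of Nanog was -0.51 for EMM against 2i/LIF. P10 and P20 libraries differ in passage and in whatever else differed between the samplings, which cannot be told apart.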

How the results depend on the processing

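Of 170 values (10 members in 17 comparisons), 99 passed. At the same adjusted p and with no fold threshold, 81 of these passed in every other fit and with every library left out. None of the 99 changed sign. A log2 fold change over 1 in size left 0 members in each of the 5 time-course comparisons, with 0.573% to 8.18% of all genes. In EMM against Serum/LIF it left 1 at P10 (6.67% of all genes higher and 10.5% lower) and 1 at P20 (3.44% and 6.19%). It left 5 in EMM against 2i/LIF at P10 (11% each way) and 4 in 2i/LIF against Serum/LIF at P10 (11.6% and 14.8%). From P10 to P20 it left 1 in each medium (1.17% and 0.673% in Serum/LIF, 5.59% and 2.95% in EMM, 3.56% and 6.59% in 2i/LIF). It left 2 in each interaction with EMM (5.06% and 3.34% against Serum/LIF, 10.2% and 6.3% against 2i/LIF). The counts from 9 to 24 h (5) and from P10 to P20 in Serum/LIF (5) rose at an adjusted p under 0.05. The latter was also 5 with DESeq2 and with only its own groups, the former 1 with only its groups, and from P10 to P20 in 2i/LIF only 1 (Sox2) passed in such a fit. EMM against Serum/LIF at P20 had 3 with library totals alone and 6 with only its groups (26% of all genes passed in the fit to all groups). At P10 it had 9 with only its groups, and 8 in the fit to all groups, where 37.4% of all genes passed. Shares of all genes in these other fits are not given here. Of the values that did not pass, 56 stayed above an adjusted p of 0.01 in every other fit, and the rest passed in at least 1. With a library left out, EMM against Serum/LIF at P20 had 3 to 4 members passing, and 24 against 9 h had 1 to 2.

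Values near 0 that did not pass changed sign. Pou5f1 at 3 h was -0.0589 with library totals alone. Sall4 was 0.0283 at 9 h and 0.00311 at 24 h with the description numbers as a replicate block, and -0.0513 to 0.0163 at 9 h with a library left out. Lin28b at 3 h ran from -0.0873 to 0.0207. In P20 EMM against Serum/LIF, Pou5f1 was -0.0211 with DESeq2 and with its size factors, -0.0902 with library totals, -0.0476 with at least 10 counts in every library, -0.00936 with only these groups, and -0.0341 to 0.0508 with a library left out, while Sox2 was -0.0291 with library totals. Against P20 2i/LIF, Pou5f1 ran from -0.0137 to 0.0434.

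Deviations of same-numbered libraries correlated above 0.1 in 5 of 18 pairs by title and 5 of 15 by description in the time course. Pairs of unlike number reached 0.28 and 0.22 there. In the passage experiment 3 of 45 were above 0.1, all 3 between P10 and P20 of 2i/LIF (r = 0.30, 0.13 and 0.22). Pairs of unlike number between these 2 groups ran from -0.25 to 0.05. The numbers may thus pair P10 and P20 in 2i/LIF, and no fit modelled a pairing within 1 medium. With the title number as a replicate block, 6, 7, 4, 6 and 2 members passed in the time course. Without it they were 6, 7, 4, 7 and 2, with 34.5%, 38.2%, 44%, 26.5% and 13% of all genes. In EMM, 8 and 5 passed with it against Serum/LIF and 10 and 9 against 2i/LIF. The counts without it were the same, with 37.4%, 26%, 45.1% and 48.6% of all genes. Shares of all genes with the block are not given here. That block lost 1 call, Lin28b from 3 to 9 h, and gained 0.

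Depth limits Lin28b most, with 39 to 119 counts in 2i/LIF libraries, and the passage table has the wider spread between libraries. Some time-course libraries lay close together: all of EMM 3 h, EMM 9 h replicates 1 and 2, and EMM 24 h replicates 2 and 3. The chi-square per gene between their counts was 2.04 to 2.80, against 9.65 to 13.4 for the other pairs within a group. Whether the small SDs there reflect the spread between cultures was not tested.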
